A study of Mus musculus with 69 samples.

Results

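The mitochondrial carriers are the Slc25 family, most of them proteins of the inner mitochondrial membrane that let metabolites into and out of the matrix. They were followed here as transcripts in the kidneys of lupus-prone NZB/W F1 mice over the day, in active nephritis and after induction of remission. The members are the gene symbols that start with Slc25a followed by a digit and that had at least 100 counts in total over the 65 original libraries. Of 47 such symbols, 45 passed, out of 24523 symbols with counts in the files. Slc25a31 with 212 counts and Slc25a2 with 544 counts lay just inside this limit, and Slc25a41 with 55 counts and Slc25a54 with 9 counts lay outside it.

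RNA sequencing was performed on kidneys of 30 young mice aged 12 weeks, 27 nephritic mice aged 30 to 45 weeks and 8 remission mice aged 36 to 50 weeks, all NZB/W F1, a cross that develops immune complex nephritis with age. Nephritic mice were collected 2 to 3 weeks after the onset of proteinuria of 300 mg/dl. Remission mice had been nephritic, received 1 dose of cyclophosphamide at 50 mg/kg with 6 doses of CTLA4Ig (200 µg) and of anti-CD40L (250 µg), and were collected 8 weeks after induction with proteinuria of at most 30 mg/dl. Young and nephritic kidneys came from 6 time points, ZT0, ZT4, ZT8, ZT12, ZT16 and ZT20, with zeitgeber time (ZT) in hours after lights on, and remission kidneys only from ZT0 and ZT12. Diagnosis and age cannot be told apart in this design, since no untreated old mouse without nephritis was among these libraries. Each library was made from whole perfused kidney, so fewer cells of a type and less RNA per cell cannot be told apart.

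Carriers of this family share a fold of repeated membrane-spanning modules and mostly work as exchangers, swapping a substrate of the matrix for one of the cytosol. They supply the respiratory chain with ADP and phosphate, move citrate, malate and aspartate between compartments, bring acylcarnitines in for β-oxidation, and load mitochondria with cofactors such as coenzyme A and S-adenosylmethionine. In the kidney the proximal tubule, whose transport work is paid for mainly by fatty acid oxidation, is especially rich in mitochondria. Slc25a33, which carries pyrimidine nucleotides, and Slc25a42, which carries coenzyme A, stand for the family below where a single member is followed.

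The original libraries held 25257530 to 35744843 counts in young, 26596500 to 48075977 in nephritic and 13311278 to 21849912 in remission mice. Levels are given as CPM, the library's counts per gene relative to its scaled total. The 7 proximal tubule markers summed to at least 1654 CPM and the 4 distal nephron markers to at least 3091 CPM in every original library. Young and nephritic mice of ZT0 and ZT12 came in 2 sets by the study's sample list, the first with 11 of these mice, and the other time points are of the second set alone. Some libraries stood apart. Remission mouse s9, labelled ZT12, had 27.6 CPM of the clock gene Arntl against 3.20 to 4.92 CPM in the other 3 remission mice of ZT12 and 22.7 to 29.2 CPM in the 4 of ZT0, and its nearest library was a remission mouse of ZT0, so results that rest on it are given with and without it. Nephritic mouse RX10RU, labelled ZT8, had 18.3 CPM of Arntl against 2.10 to 3.80 CPM in the other nephritic mice of ZT8, and was kept under its label. The second library of nephritic mouse RX11RU lay nearer mouse RX11LU (r = 0.805) than its own original (r = 0.357), while the other 3 repeated mice lay nearest their originals. In 3 young libraries, ZT8LU, ZT16RU and ZT16LL, the liver gene Apoh reached 206 to 252 CPM, and in 7 young and 1 nephritic libraries the adrenal gene Cyp11b1 exceeded 10 CPM. Remission libraries carry sample numbers of 1 series with the 4 repeat libraries, which was taken as a run of their own.

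The sequences just upstream of 5 carriers that the results turn on are shown here because clock proteins and nuclear receptors act through short motifs near the start of transcription. The letters searched, on both strands, were CACGTG (the E-box bound by Clock and Bmal1), TTATGTAA (a D-box) and AGGTCA, a core of nuclear receptor sites that reads TGACCT on the other strand. None of these overlaps another. Each line holds 130 bases from RefSeq on GRCm38.p6 in the direction of transcription, with a match in capitals, and ends just before the transcript start that the RefSeq promoter table uses. For Slc25a33, Slc25a42 and Slc25a20 that is the outer end of the gene. The gene record of Slc25a13 begins further upstream, so that all 130 bases lie inside the gene, as do 57 of the 130 for Slc25a34, and distances for this pair count from the inner start. Slc25a33 is chr4:149774268-149774397 on the minus strand, with its E-box 8 to 3 bases before the start; Slc25a13 is chr6:6217174-6217303, minus strand, with an E-box 125 to 120 bases before it; Slc25a34 is chr4:141623835-141623964, minus strand, with a TGACCT 119 to 114 bases before it. Slc25a42 is chr8:70212282-70212411 on the minus strand and Slc25a20 is chr9:108662006-108662135 on the plus strand, and neither window holds any of the letters searched.
Slc25a33: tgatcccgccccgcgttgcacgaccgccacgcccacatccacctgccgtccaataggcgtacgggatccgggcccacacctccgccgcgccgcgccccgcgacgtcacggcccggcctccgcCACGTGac
Slc25a13: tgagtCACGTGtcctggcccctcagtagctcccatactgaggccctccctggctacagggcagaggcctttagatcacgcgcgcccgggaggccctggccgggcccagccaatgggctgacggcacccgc
Slc25a34: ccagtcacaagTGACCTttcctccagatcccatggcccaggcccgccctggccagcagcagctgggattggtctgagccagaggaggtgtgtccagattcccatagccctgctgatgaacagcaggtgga
Slc25a42: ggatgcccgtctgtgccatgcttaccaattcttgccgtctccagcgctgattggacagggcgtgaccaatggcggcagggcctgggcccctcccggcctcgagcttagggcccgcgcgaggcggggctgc
Slc25a20: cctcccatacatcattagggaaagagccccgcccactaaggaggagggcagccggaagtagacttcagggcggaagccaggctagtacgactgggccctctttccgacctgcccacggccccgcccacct

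Among the 35 members with a promoter window of 250 bases before to 50 after the start, 7 held CACGTG (20%, against 8.09% of 27025 genes). These were Slc25a1, Slc25a13, Slc25a14, Slc25a15, Slc25a31, Slc25a33 and Slc25a36. AGGTCA was found for 4 of the 35, Slc25a34, Slc25a39, Slc25a45 and Slc25a47 (11.4%, against 18.1% of all genes), and TTATGTAA for 0 of the 35, against 1.11% of all genes. These matches describe letters in a window and were not tested as binding sites.

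In young mice, 23 of the 44 carriers tested varied over the 6 time points (edgeR quasi-likelihood F test, adjusted p at most 0.05), or 52.3%, beside 39.8% of all genes tested. Most reached their highest mean level at ZT8 or ZT12: 16 of the 23 peaked there (69.6%), where 32.3% of all rhythmic genes peaked. The peaks of a fitted 24 h cosine were spread more widely in these 16, from 4.28 h for Slc25a36 to 16.7 h for Slc25a40. Some highest means were not separated from the next, as for Slc25a1, where ZT12 stood 0.05 log2 (SE 0.09) above ZT4. The cofactor and nucleotide carriers gave 7 of 9, the carboxylate carriers 4 of 4, the iron and glutathione carriers 3 of 4 and the amino acid carriers 3 of 9. Of the adenine nucleotide and phosphate carriers 1 of 6 varied, and of the uncoupling protein-like carriers 0 of 3 passed, with adjusted p of 0.155 for Slc25a14, 0.0699 for Slc25a27 and 0.0686 for Slc25a30. Amplitudes, the height of a 24 h cosine above its mean, were small for most, with a median of 0.18 log2 CPM over the 23 members and 0.19 over all rhythmic genes.

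Slc25a33 had one of the clearest rhythms of the family. In young mice its mean level was 15.5 ± 3.5 CPM at ZT0 (SD, n = 7), 15 ± 1.2 at ZT4 (n = 4), 23.3 ± 1.8 at ZT8 (n = 4), 27.1 ± 3.8 at ZT12 (n = 7), 22.8 ± 2.3 at ZT16 (n = 4) and 17.5 ± 1.8 at ZT20 (n = 4). All 7 mice of ZT12, at 21.7 to 31.6 CPM, lay above all 7 of ZT0, at 10.04 to 19.6 CPM. The amplitude was 0.44 log2 CPM (SE 0.05, adjusted p = 6.8e-08), and the peak at ZT12 stood 0.38 (SE 0.11) above the next time point, ZT8, on the log2 scale.

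In nephritic mice the means of Slc25a33 lay closer together. Its means were 14 ± 3.6 CPM at ZT0 (n = 7), 14.1 ± 0.47 at ZT4 (n = 4), 18.6 ± 4.9 at ZT8 (n = 4), 16.6 ± 4.4 at ZT12 (n = 6), 13.6 ± 1.6 at ZT16 (n = 3) and 17.1 ± 0.50 at ZT20 (n = 3). The lowest, median and highest of ZT12 were 11, 16.5 and 23.5 CPM, overlapping those of ZT0 at 9.95, 12.8 and 19.5 CPM. Mouse RX10RU, set apart above by its Arntl, was the lowest of ZT8 at 11.25 CPM, with the next at 20.8 CPM. The amplitude was 0.11 log2 CPM (SE 0.08), and the test over time points was not passed (adjusted p = 0.36). It was not passed in any of the 27 fits that left out a mouse either. A test not passed does not show a flat level.

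Slc25a42 had the largest amplitude among members whose call held without the 3 libraries with liver RNA. Young mice averaged 100 ± 13 CPM at ZT0, 114 ± 15 at ZT4, 217 ± 28 at ZT8, 198 ± 53 at ZT12, 157 ± 30 at ZT16 and 112 ± 9.2 at ZT20. Every mouse of ZT8 and ZT12, at 163 to 311 CPM, lay above every mouse of ZT0 and ZT4, at 84.7 to 131 CPM. The amplitude was 0.55 log2 CPM (SE 0.06, adjusted p = 3.8e-07), and the peak at ZT8 was not separated from ZT12 (difference 0.24, SE 0.16).

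In nephritic mice the highest mean of Slc25a42 was again that of ZT8, at 151 ± 48 CPM, but mice of 1 time point lay far apart. At ZT12 the 2 mice of the first set had 32.4 and 42.7 CPM and the 4 of the second set 149 to 211 CPM, beside summed proximal tubule markers (listed further on) of 1654 and 2403 CPM against 6697 to 10570 CPM, and at ZT0 the 7 mice ran from 39.1 to 131 CPM. The amplitude was 0.23 log2 CPM (SE 0.17, adjusted p = 0.64 over time points). The rhythm itself did not pass the test of a difference between young and nephritic mice (adjusted p = 0.50).

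**Figure D1:**
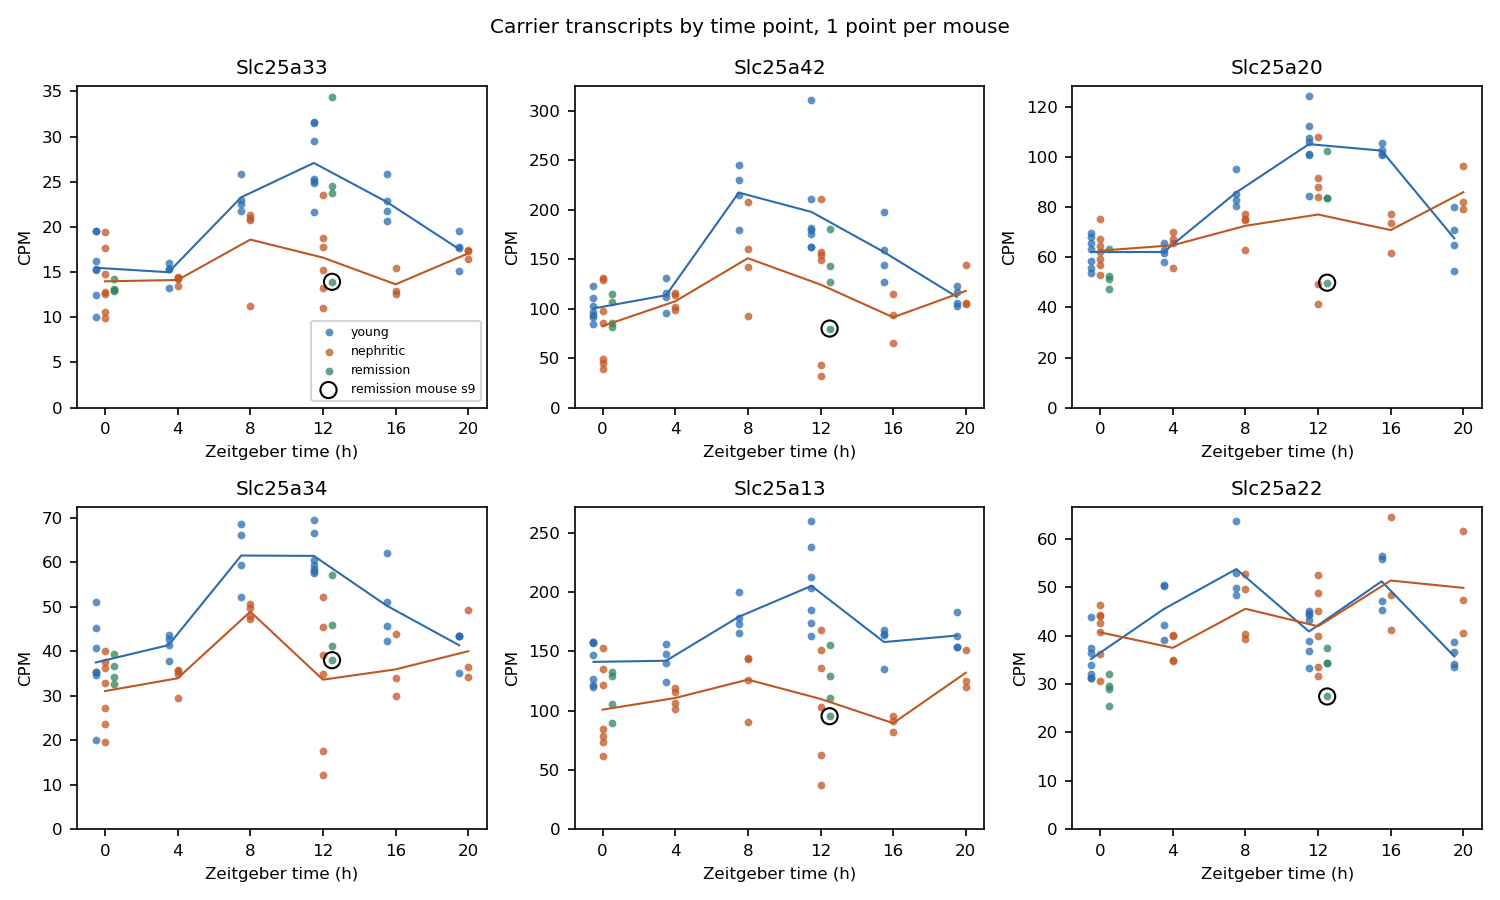
CPM of 6 carriers against zeitgeber time in hours, 1 point per mouse, with lines through the means of young (blue) and nephritic (orange) mice and remission mice in green at ZT0 and ZT12. For Slc25a33 the 7 young mice of ZT12 sit at 21.7 to 31.6 CPM, above all 7 of ZT0, and the circled remission mouse s9 sits at 13.9 CPM beside the remission mice of ZT0.

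The fatty acid carrier Slc25a20, which exchanges acylcarnitine for carnitine, was highest at ZT12 and ZT16. Young means were 62.1 ± 6.3 CPM at ZT0, 62.1 ± 3.2 at ZT4, 86.0 ± 6.6 at ZT8, 105 ± 12 at ZT12, 103 ± 2.2 at ZT16 and 67.6 ± 11 at ZT20. No mouse of ZT12 or ZT16, at 84.4 CPM or more, overlapped ZT0 or ZT4, at 69.8 CPM or less. The amplitude was 0.43 log2 CPM (SE 0.04, adjusted p = 3.4e-08). In nephritic mice the amplitude was 0.13 (SE 0.08, adjusted p = 0.40): the means were 62.7 CPM at ZT0, 77.1 CPM at ZT12 and 86.0 CPM at ZT20, and the 6 mice of ZT12 spanned 41.4 to 108 CPM, the first set at 41.4 and 49.5 CPM and the second at 84.3 to 108 CPM.

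Slc25a34, a carrier without an assigned substrate, was the fifth largest by amplitude among members that varied over time in young mice, at 0.40 log2 CPM (SE 0.06, adjusted p = 0.0002), with means of 61.5 CPM at ZT8 and at ZT12 against 37.5 CPM at ZT0. Its nephritic amplitude was 0.08 (SE 0.13, adjusted p = 0.56). The dicarboxylate carrier Slc25a10 rose from 634 ± 120 CPM at ZT0 to 943 ± 70 CPM at ZT8 in young mice, and citrin, Slc25a13, the aspartate and glutamate exchanger, from 141 ± 18 CPM at ZT0 to 205 ± 35 CPM at ZT12.

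In nephritic mice 5 of the 45 carriers tested varied over the time points (11.1%), beside 21.6% of all genes tested. These were the citrate carrier Slc25a1 (adjusted p = 0.0079, peak ZT8), mitoferrin-1, Slc25a37 (0.019, ZT12), mitoferrin-2, Slc25a28 (0.026, ZT16), the S-adenosylmethionine carrier Slc25a26 (0.032, ZT8) and Slc25a47 (0.035, ZT8). All 5 also varied in young mice, and 1 of them, Slc25a26, had the same peak time point in both groups. With each mouse left out, the nephritic call was lost in 8 of 27 fits for Slc25a47, 5 for Slc25a26, 1 for Slc25a28 and 0 for Slc25a1 and Slc25a37. Of 12 alternatives, 3 lost it for Slc25a47, 4 for Slc25a26, 3 for Slc25a28, 2 for Slc25a37 and 1 for Slc25a1. Slc25a1 reached 162 ± 9.4 CPM at ZT8 and 121 ± 4.7 CPM at ZT4 in nephritic mice, with a cosine amplitude of 0.04 (SE 0.05), so its variation was not of 24 h cosine shape. Of the 23 members rhythmic in young mice, 21.7% also passed in nephritic mice, and of all genes rhythmic in young mice 30.2% did. Their nephritic amplitude was the lower in 17 of 23 (73.9%), with a median ratio of 0.590; over all genes rhythmic in young mice it was the lower in 78.2%, with a median ratio of 0.624. The 23 were chosen by their young rhythm, so these shares are a description.

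**Figure D2:**
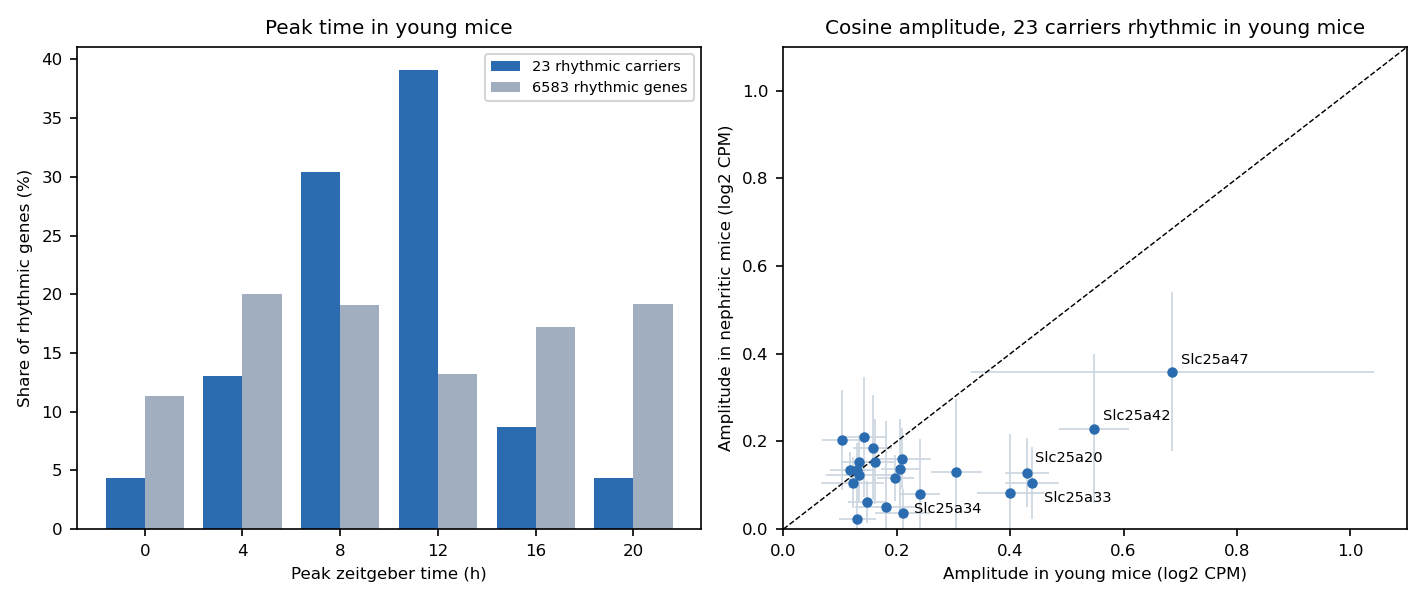
Left, the share in percent of the 23 carriers and of all 6583 genes rhythmic in young mice that peaked at each zeitgeber time; right, cosine amplitude in log2 CPM of the 23 carriers in young against nephritic mice, with SE bars and the line of equal amplitude. The carriers hold 30.4% and 39.1% of their peaks at ZT8 and ZT12, and Slc25a42, Slc25a33, Slc25a20 and Slc25a34 lie well under the line.

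The difference in rhythm itself, the group by time term fitted over 57 mice, passed for 4 of 45 carriers, beside 6.27% of all genes. These were Slc25a20 (adjusted p = 0.025), the glutamate carrier Slc25a22 (0.032), Slc25a47 (0.033) and Slc25a33 (0.048). Slc25a22 had 2 highs in young mice, 53.8 ± 6.9 CPM at ZT8 and 51.2 ± 5.7 CPM at ZT16 around 40.9 ± 4.6 CPM at ZT12, and in nephritic mice its means ran from 37.5 ± 3.0 CPM at ZT4 to 51.4 ± 12 CPM at ZT16. Of these 4 calls, 3 were lost without the 3 young libraries that carry liver RNA. Of all genes 2.51% differed in rhythm in that fit, instead of 6.27%, and it held fewer young mice of ZT8 and of ZT16. The cause of the lost calls was not tested. Without the 3 libraries the adjusted p was 0.0499 for Slc25a20, 0.065 for Slc25a33, 0.084 for Slc25a22 and 0.16 for Slc25a47. In young mice 20 members instead of 23 varied over time, beside 31.2% instead of 39.8% of all genes. Fat was another tissue that moved with time: all 4 adipocyte markers varied over the time points in both groups, with summed levels of 16.9 to 423 CPM in young mice. With their level as a covariate 21 members varied in young mice, beside 33.6% of all genes. All 4 adrenal markers varied in both groups as well, and 3 of the 4 differed in rhythm between them, with summed levels of 3.90 to 1815 CPM in young and 4.87 to 1202 CPM in nephritic mice. The highest were young mice of ZT12 and ZT16, and without the libraries over 10 CPM of Cyp11b1 22 members varied in young mice, beside 28.5% of all genes. In the group by time fit without those libraries 8.57% of all genes differed in rhythm, instead of 6.27%. Of the 4 members named above, Slc25a47 still differed in rhythm between the groups. The adjusted p of that term was 0.054 for Slc25a20, 0.065 for Slc25a33 and 0.084 for Slc25a22. Members that did not pass in the main fit but passed in this one are not listed here. Slc25a33, Slc25a42, Slc25a20 and Slc25a34 kept their young rhythm under each of the 12 alternatives tried.

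Slc25a47, a carrier known chiefly from the liver, was 98.4 CPM in library ZT8LU, 51.7 CPM in ZT16RU and 42.8 CPM in ZT16LL. The other 27 young libraries had 0.81 to 9.48 CPM, the 27 nephritic libraries 1.03 to 5.77 CPM and the 8 remission libraries 0.564 to 2.01 CPM, so the 3 libraries stood apart from all others. The summed level of 6 liver genes (Alb, Apoa1, Fgb, Serpina1a, Apoh and Cyp3a11, a list made after these values were seen) was 29.6 to 12020 CPM in young, 20.3 to 3457 CPM in nephritic and 13.9 to 25.7 CPM in remission mice. With all libraries the young amplitude of Slc25a47 was 0.69 log2 CPM (SE 0.35, adjusted p = 0.0015), the largest estimate of the family. Without the 3 libraries it was 0.44 (SE 0.22, adjusted p = 0.22), and the level difference between nephritic and young mice went from -0.97 (SE 0.35, adjusted p = 0.013) to -0.31 (SE 0.21, adjusted p = 0.20).

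**Figure D3:**
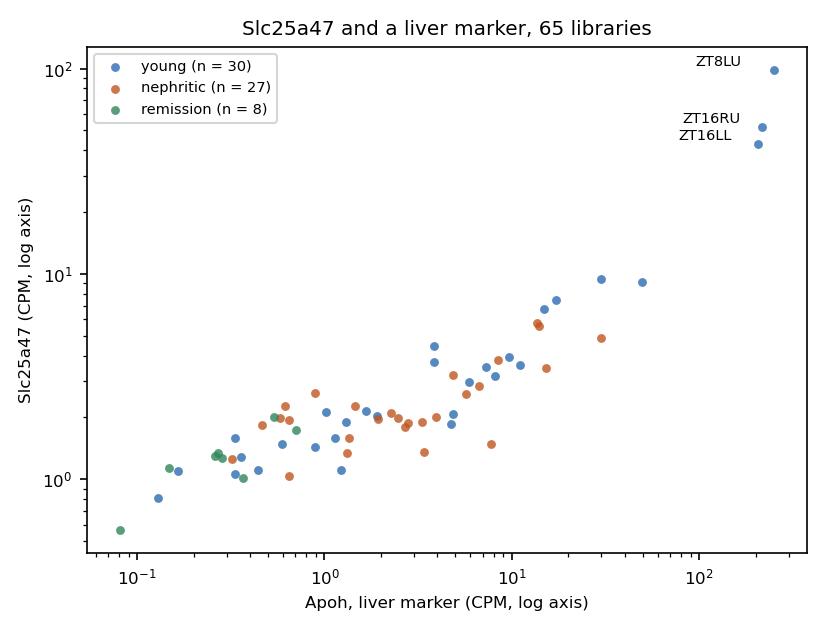
CPM of Slc25a47 against CPM of the liver marker Apoh in 65 libraries, both on log axes, coloured by group. The 3 young libraries at 206 to 252 CPM of Apoh hold the 3 highest values of Slc25a47, 42.8 to 98.4 CPM.

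Averaged over the day, most carriers were lower in nephritic than in young kidneys. Of 45 members 32 fell (71.1%), beside 33.9% of all genes, and 3 rose (6.67%), beside 28.1% of all genes. The median difference was -0.31 log2 over the members and -0.03 over all genes. By substrate, the carboxylate carriers fell in 4 of 4, the cofactor and nucleotide carriers in 8 of 9, the amino acid carriers in 6 of 9, the adenine nucleotide and phosphate carriers in 5 of 7, the iron and glutathione carriers in 2 of 4, the uncoupling protein-like carriers in 1 of 3 and the carriers without an assigned substrate in 5 of 8. Slc25a20 fell by 0.19 (SE 0.07, adjusted p = 0.013), and without the 3 libraries with liver RNA it did not pass (-0.15, adjusted p = 0.065).

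The exchangers that feed ATP synthesis fell, among them the members with the most counts, Slc25a5 and Slc25a3. The ADP/ATP exchanger Slc25a5 was 1276 ± 97 CPM in young and 962 ± 201 CPM in nephritic mice (log2 difference -0.45, SE 0.06, adjusted p = 2.4e-08). The phosphate carrier Slc25a3 was 1141 ± 62 and 892 ± 174 CPM (-0.40, SE 0.06, adjusted p = 2.0e-08). Slc25a4, the ADP/ATP exchanger of muscle, fell less, by 0.25 (SE 0.04).

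The ATP-Mg carriers, which exchange ATP-Mg for phosphate and are gated by calcium, went in both directions. Slc25a24 was 3.94, 6.58 and 9.80 CPM in young mice (lowest, median, highest) and 5.75, 14.5 and 60.4 CPM in nephritic mice. The groups overlapped, although the nephritic median lay above the highest young mouse, and the rise of 1.29 log2 (SE 0.17, adjusted p = 1.1e-08) was the largest of the family. Its relative Slc25a25 was 47.8, 176 and 481 CPM in young and 30.7, 65.7 and 399 CPM in nephritic mice, with wide overlap, and fell by 0.83 log2 (SE 0.26, adjusted p = 0.0047). Slc25a23 fell by 0.45 (SE 0.05, adjusted p = 3.6e-11).

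Among carboxylate and amino acid carriers, the oxoadipate carrier Slc25a21, which serves lysine and tryptophan breakdown, was 16.2, 24.1 and 29.6 CPM in young and 6.55, 15.4 and 24.9 CPM in nephritic mice and fell by 0.70 log2 (SE 0.10, adjusted p = 1.6e-08). Citrin, Slc25a13, was 120, 163 and 260 CPM in young and 37.5, 116 and 168 CPM in nephritic mice and fell by 0.63 (SE 0.09, adjusted p = 1.3e-07). In both, the nephritic median lay below the lowest young mouse, with overlap at the top of the nephritic range. Slc25a22 and Slc25a18, the glutamate carriers, did not pass (0.00, SE 0.06, and -0.02, SE 0.13).

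Slc25a33 was 10.04, 20.1 and 31.6 CPM in young and 9.95, 14.7 and 23.5 CPM in nephritic mice over all times, a fall of 0.39 log2 (SE 0.07, adjusted p = 7.2e-06). Slc25a42 was 84.7, 129 and 311 CPM against 32.4, 106 and 211 CPM, a fall of 0.45 (SE 0.13, adjusted p = 0.0019). Slc25a48, which has been linked to choline, fell by 0.75 (SE 0.13, adjusted p = 1.6e-06), from 12.98, 17.3 and 28.9 CPM to 2.24, 10.7 and 21.4 CPM. The other 2 rises were of scarce transcripts without an assigned substrate: Slc25a43 at 0.55, 0.86 and 1.29 CPM in young and 0.51, 1.36 and 3.69 CPM in nephritic mice (0.68, SE 0.12, adjusted p = 5.5e-06), and Slc25a53 at 0.69, 1.54 and 2.24 CPM against 1.15, 1.68 and 4.16 CPM (0.23, SE 0.11, adjusted p = 0.049). The call of Slc25a53 was lost in 19 of 57 fits that left out a mouse and in 6 of 13 alternatives.

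Most genes that work with these carriers also fell, where 33.9% of all genes fell and 28.1% rose. Of the enzymes and transporters of the carnitine shuttle 4 of 5 fell, among them the plasma membrane carnitine transporter Slc22a5 (-0.56, SE 0.11) and Cpt1a, which forms acylcarnitines (-0.32, SE 0.07). Of coenzyme A synthesis 4 of 5 fell, with the pantothenate kinase Pank1 at -0.58 (SE 0.10). All 4 genes of citrate metabolism fell, all 4 of the malate-aspartate shuttle (Mdh1 -0.57, SE 0.08), all 3 of S-adenosylmethionine metabolism (Ahcy -0.81, SE 0.11), all 6 of mitochondrial iron and haem and all 5 of pyruvate and outer membrane entry (Mpc1 -0.40, SE 0.09). Of regulators of mitochondrial biogenesis 5 of 6 fell, with Ppargc1a at -0.40 (SE 0.07). Of the ornithine and urea genes 4 of 5 fell, 2 of which, Cps1 and Otc, are liver genes. Of 5 family members under other symbols, Ucp2 rose by 0.81 (SE 0.10) and Mtch2 fell by 0.20 (SE 0.03).

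Proximal tubule, leukocyte and injury markers also differed between nephritic and young mice, where 33.9% of all genes fell and 28.1% rose. Of the 4 distal nephron markers 1 rose and 1 fell. All 7 proximal tubule markers (Slc34a1, Lrp2, Cubn, Slc5a2, Slc5a12, Slc22a6 and Aqp1) fell, with summed levels of 8998 to 14890 CPM in young and 1654 to 11570 CPM in nephritic mice, and all 5 leukocyte and all 4 injury markers rose. With the summed proximal tubule level as a covariate, 9 carriers were lower and 0 higher in nephritic mice (edgeR), beside 11.6% and 11.4% of all genes. The 9 included the S-adenosylmethionine carrier Slc25a26, the oxoglutarate carrier Slc25a11 and the citrate carrier Slc25a1 (-0.33); Slc25a42 changed sign, to 0.22, and Slc25a25 to 0.06. What part the lower tubule marker level had in the falls was not tested beyond this fit.

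**Figure D4:**
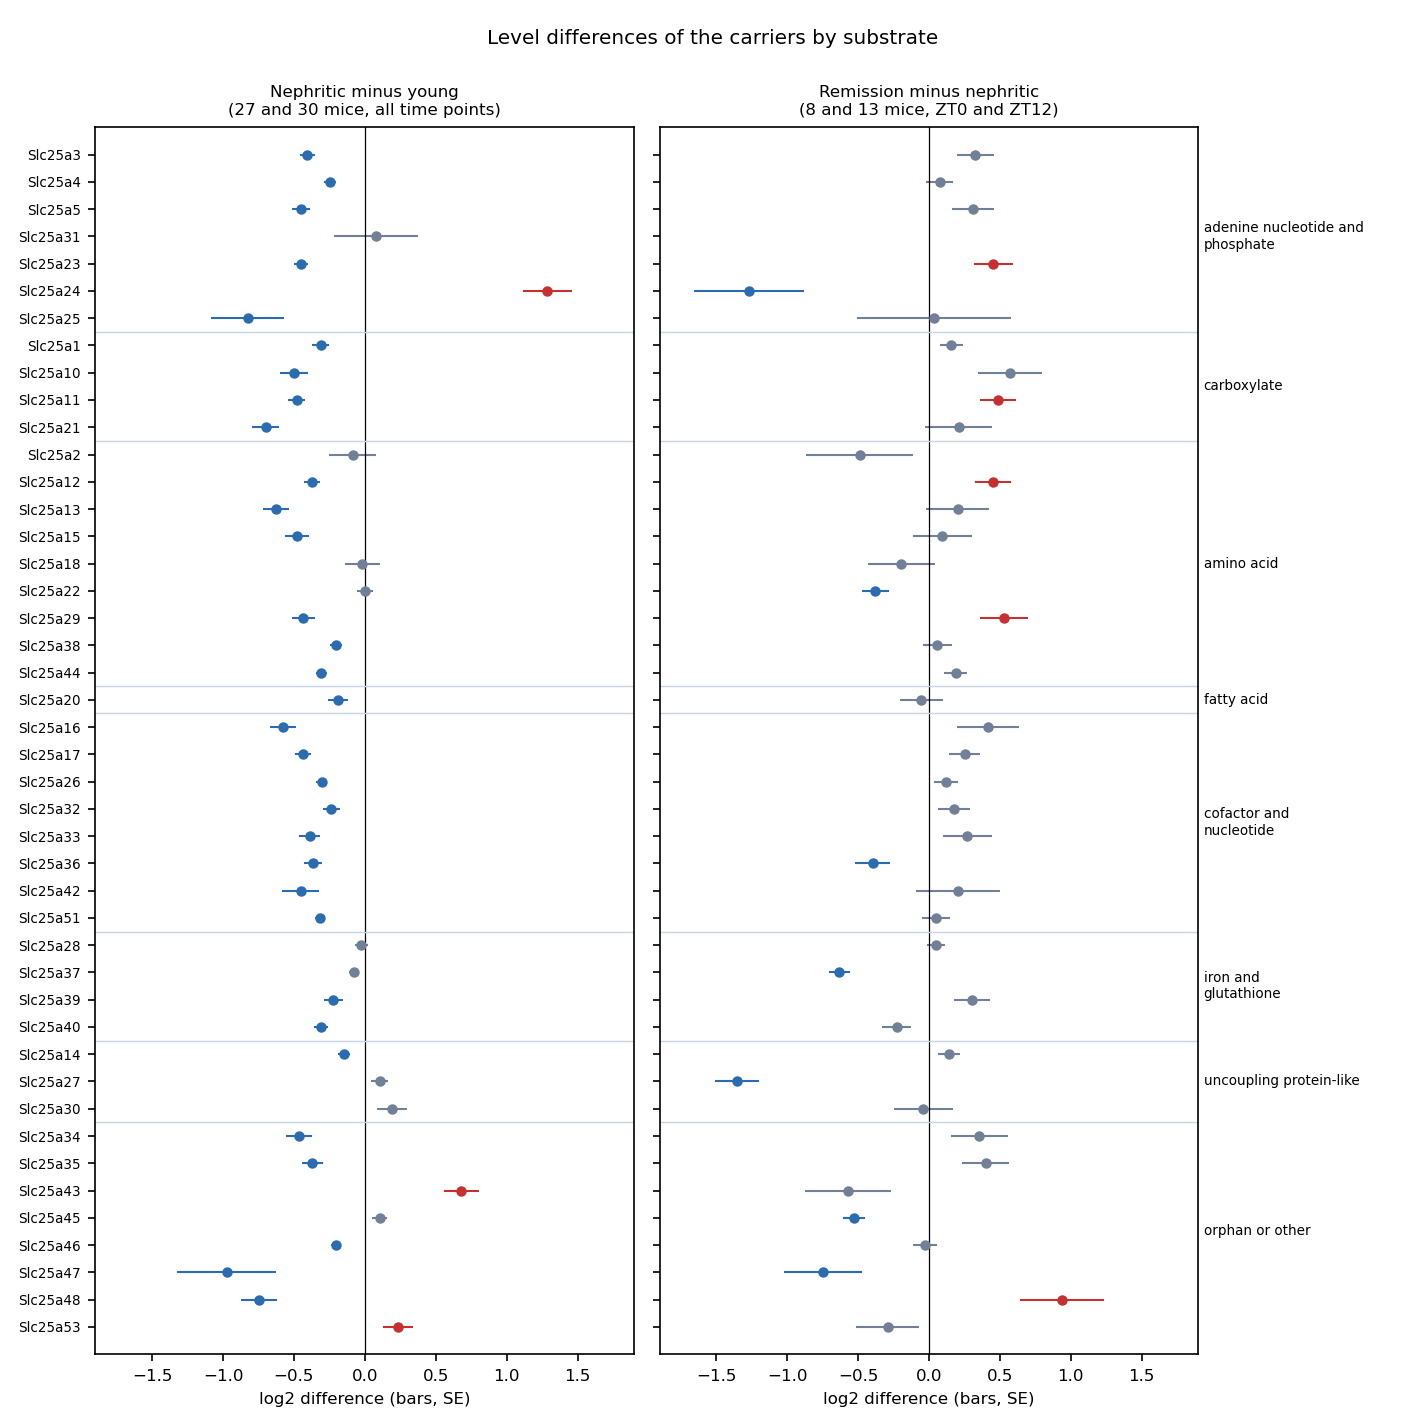
Log2 level differences with SE bars of 44 of the 45 carriers, in rows by substrate, for nephritic minus young mice (left) and remission minus nephritic mice at ZT0 and ZT12 (right), with red for higher and blue for lower past the test and grey for not passed. On the left 32 carriers lie below 0 in blue and 3 above in red; on the right 5 are red and 7 blue.

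Of the nephritic mice, 13 were collected at ZT0 or ZT12 and served as the reference for the 8 remission mice. Of 44 carriers 5 were higher, beside 16.8% of all genes, and 7 lower, beside 19% of all genes. Without mouse s9 the counts were 5 higher, beside 14.5%, and 6 lower, beside 16.9%. The 5 higher were Slc25a48 (0.94, SE 0.30, adjusted p = 0.018), the basic amino acid carrier Slc25a29 (0.53, SE 0.17, 0.020), the oxoglutarate carrier Slc25a11 (0.49, SE 0.13, 0.0059), the ATP-Mg carrier Slc25a23 (0.45, SE 0.14, 0.014) and the aspartate and glutamate carrier Slc25a12 (0.45, SE 0.13, 0.0093). Their differences between nephritic and young mice, which share the nephritic libraries, were -0.75, -0.43, -0.48, -0.45 and -0.37 in the same order. Slc25a48 was 17.6, 19.7 and 23.3 CPM in remission, 2.24, 9.12 and 21.4 CPM in nephritic and 14.7, 18.8 and 28.9 CPM in young mice of these time points, so remission mice lay inside the young range. Slc25a33 and Slc25a42 did not pass (0.27, SE 0.17, adjusted p = 0.22, and 0.21, SE 0.30, adjusted p = 0.61).

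Slc25a24, the carrier that rose most in nephritis, was 6.49, 8.58 and 11.3 CPM in remission against 5.75, 16.6 and 60.4 CPM in nephritic mice and 3.94, 6.80 and 9.80 CPM in young mice of ZT0 and ZT12. It fell by 1.27 log2 from nephritic mice (SE 0.39, adjusted p = 0.016) and was higher than in young mice by 0.32 (SE 0.12, adjusted p = 0.030). The remission range overlapped that of both other groups. The other lower members were Slc25a27, Slc25a37, Slc25a47 (-0.75), Slc25a45 (-0.53), Slc25a36 (-0.40), which carries pyrimidine nucleotides like Slc25a33, and Slc25a22 (-0.38). The fall of Slc25a47 was lost in 10 of 21 fits that left out a mouse, s9 among them, and in 6 of 12 alternatives, and 5 of the 6 liver genes were also lower in remission, with a median difference of -3.50 log2 over the list.

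A pair of carriers was lower in remission than in both other groups without overlap. The uncoupling protein-like Slc25a27, also called UCP4, was 1.51, 2.06 and 3.01 CPM in remission, 3.97, 5.75 and 7.19 CPM in nephritic and 3.74, 4.28 and 5.61 CPM in young mice, a difference of -1.35 from nephritic mice (SE 0.15, adjusted p = 2.8e-06). The iron carrier Slc25a37, mitoferrin-1, which serves haem synthesis in red cell precursors, was 24.2, 24.9 and 31.2 CPM in remission, 33.4, 39.3 and 51.2 CPM in nephritic and 37.0, 40.8 and 47.6 CPM in young mice, a difference of -0.63 (SE 0.07, adjusted p = 2.7e-06). Neither fell in nephritic against young mice over all time points (0.10, SE 0.06, and -0.07, SE 0.04). Erythroid markers had summed levels of 72.5 to 237 CPM in remission and 32.9 to 164 CPM in nephritic mice, with 3 of the 6 at 0. The 2 that were tested were both higher in remission than in nephritic mice, with a median of 2.34 log2, beside 16.8% of all genes. Without s9 both were higher as well, with a median of 1.65 log2, beside 14.5% of all genes.

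The repeat libraries show how far the sequencing run bears on these values. Slc25a37 was 37.0 CPM in the original and 32.8 CPM in the repeat of young mouse ZT0LU, 43.5 and 38.3 CPM in ZT12RU, 38.8 and 30.6 CPM in nephritic mouse RX12RU and 45.9 and 32.4 CPM in RX11RU. All 4 repeats were lower, toward the remission values. Slc25a27 was 4.30 and 4.91 CPM in ZT0LU, 5.30 and 5.29 CPM in ZT12RU, 5.61 and 4.66 CPM in RX12RU and 6.65 and 5.96 CPM in RX11RU, and every repeat lay above every remission mouse. With a run term set by the 4 repeats, the differences from nephritic mice were -1.41 for Slc25a27, -0.36 for Slc25a37, -1.13 for Slc25a24 and 1.12 for Slc25a48, all past the test. Without the repeat of RX11RU, which lay nearer another mouse than its own original, they were -1.40, -0.39, -1.27 and 1.102, and Slc25a48 no longer passed (adjusted p = 0.061). Among libraries of the remission run alone, with 2 nephritic mice of which RX11RU is 1, 12 of 43 carriers were higher, beside 10.6% of all genes, and 3 lower, beside 12.8%, the latter being Slc25a24, Slc25a27 and Slc25a37.

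Against the 14 young mice of ZT0 and ZT12, 22 of 44 carriers were lower in remission, beside 26.8% of all genes, and 2 were higher, Slc25a24 among them, beside 26.2%. Without mouse s9 they were 19, beside 25.3%, and 2, beside 24.9%. With the run term 4 were lower, Slc25a27 (-1.13), Slc25a36 (-0.60), Slc25a37 (-0.41) and Slc25a40 (-0.41), and 0 higher, beside 6.53% and 6.61% of all genes; without the repeat of RX11RU, Slc25a40 no longer passed (adjusted p = 0.10). The 8 remission mice had summed proximal tubule markers of 6684 to 9618 CPM, with a median of 7210, against 8998 to 14890 CPM in young mice, and with that sum as a covariate 2 carriers were lower, beside 7.63% of all genes, and 1 higher, beside 5.86%. Young, nephritic and remission mice enter these comparisons as shared groups, so their values are given side by side. Of the partner genes, 3 of 5 of coenzyme A synthesis were higher in remission than in nephritic mice (Pank1 0.75, SE 0.23), as were 3 of 6 regulators of mitochondrial biogenesis (Ppargc1b 0.55, SE 0.19), which were 2 of 6 without s9, and 2 of 6 genes of iron and haem (Iscu 0.66, SE 0.16), beside the 16.8% of all genes. In the carnitine shuttle 1 of 5 was higher (Crat 0.47, SE 0.14), in citrate metabolism 1 of 4, in pyruvate and outer membrane entry 1 of 5, in the malate-aspartate shuttle 0 of 4 and in S-adenosylmethionine metabolism 0 of 3, and none of these was lower. Of the ornithine and urea genes 1 of 5 was higher and 2 lower.

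The ratio of ZT0 to ZT12 is the one measure of rhythm that the 3 groups share. In young mice 9 of 44 carriers differed between these time points, 7 lower at ZT0, beside 4.99% of all genes, and 2 higher, beside 4.42%. The 7 were Slc25a42 (-0.99 log2, SE 0.13), Slc25a33 (-0.82, SE 0.14), Slc25a20 (-0.77, SE 0.08), Slc25a34 (-0.73, SE 0.15), Slc25a13 (-0.55, SE 0.10), Slc25a48 (-0.45, SE 0.09) and Slc25a35 (-0.27, SE 0.06). The ornithine carrier Slc25a15 was among the 2 (0.38, SE 0.07). In nephritic mice 0 of 44 passed by edgeR, DESeq2 or limma, beside 0.0311% of all genes higher and 0.0187% lower by edgeR. At an unadjusted p under 0.05, 2 carriers were higher, beside 5.55% of all genes, and 1 lower, beside 6.4%. The nephritic differences were -0.23 (SE 0.20) for Slc25a33, -0.57 (SE 0.43) for Slc25a42 and -0.27 (SE 0.19) for Slc25a20.

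In the 8 remission mice 0 of 42 passed by the same 3 tools, beside 0% of all genes in either direction by edgeR. At an unadjusted p under 0.05, 2 were higher, beside 4.95% of all genes, and 5 lower, beside 5.08%. Slc25a33 was 13.1, 14.2, 12.9 and 13.1 CPM in the 4 mice of ZT0 and 34.4, 24.5, 23.7 and, in mouse s9, 13.9 CPM at ZT12. The 3 other mice of ZT12 lay above all of ZT0, and s9 lay among those of ZT0. Slc25a20 was 63.2, 51.4, 47.4 and 52.6 CPM at ZT0 and 102, 83.6, 83.7 and, in s9, 49.9 CPM at ZT12. Slc25a42 was 115, 85.7, 107 and 81.9 CPM at ZT0 and 181, 143, 127 and, in s9, 79.9 CPM at ZT12. In all 3 carriers s9 lay within or next to the values of ZT0.

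Mouse s9 was set apart by the ZT0 level of its Arntl, so leaving it out favours differences between ZT0 and ZT12 in the remaining mice. Whether its label is wrong or it was a mouse of ZT12 with another clock phase cannot be told from these data. Without s9, 2 carriers were lower at ZT0, beside 0.775% of all genes, and 1 higher, beside 0.636%. Slc25a33 differed by -1.05 (SE 0.14, adjusted p = 0.013) and Slc25a20 by -0.74 (SE 0.11, adjusted p = 0.026), and Slc25a42 did not pass (-0.63, SE 0.15, adjusted p = 0.094). The difference of the ratio between remission and nephritic mice passed for 0 of 44 carriers by edgeR, DESeq2 and limma alike, beside 0% of all genes in either direction by edgeR. At an unadjusted p under 0.05, 1 was higher, beside 2.37% of all genes, and 1 lower, beside 2.42%. Without s9 it was -0.80 (SE 0.30, unadjusted p = 0.016, adjusted p = 0.65) for Slc25a33 and -0.44 (SE 0.29, adjusted p = 0.84) for Slc25a20.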

How the data were processed

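Kidney RNA of young, nephritic and remission NZB/W F1 mice was sequenced with 150 base reads on an Illumina HiSeq. The paper's methods describe these reads both as paired-end and as single-ended. The deposited values are raw read counts per gene symbol, 1 file a library, which the authors made by alignment to the mouse genome (mm10; the submitters' notes name HISAT, the paper's methods a Burrows-Wheeler aligner) and counting of reads that fell uniquely on exons and junctions; no filter or normalization had been applied, and 15 of 24538 symbols were empty in every file and left out. Reads from near-identical copies are not counted under that rule, which could lower Slc25a4, Slc25a5 and Slc25a31.

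Groups and time points came from the labels, and the sets from the study's sample list. The labels do not say how mice were paired, and p-values measure the spread between these mice. Genes with at least 100 counts over the libraries of a fit were tested with edgeR 4.0.16 (R 4.3.3, TMM scaling, quasi-likelihood F test), with Benjamini-Hochberg adjustment over all genes and a threshold of 0.05: time points with set as a covariate in 30 young and 27 nephritic mice, the group by time term and the group term over the 57, remission against 13 nephritic or 14 young mice of ZT0 and ZT12, and ZT0 against ZT12 within each group. SEs were derived from the log2 fold change and F. CPM used TMM scaling over all 69 libraries. Peaks are the highest set-adjusted mean log2 CPM (prior count 2), and amplitudes come from a 24 h cosine fit with set. Named were Slc25a33, Slc25a42, members past the test of a differing rhythm, of nephritic rhythm or of remission against nephritic mice, the 5 largest young amplitudes and the 5 largest rises and falls in nephritis; Slc25a10, Slc25a13 and others beside them were chosen after their values were seen. The members, the gene lists and these rules were chosen with earlier results of these data known. The scripts were tested on simulated counts. No pair of libraries agreed within sampling noise (smallest chi-square per degree of freedom 3.69). Alternatives were RLE size factors, DESeq2 1.42.0, limma 3.58.1 on log2 CPM, no filter, other covariates and sets, a cosine test, a joint fit, repeat libraries, and each mouse left out in turn. Promoter windows were read from RefSeq tables for GRCm38.p6, where 45 of 45 members were matched by symbol and 35 had a window; no protein table was used here. Values of 1 member and of 2 partner genes are not reported here.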

Additional observations from a re-analysis of the deposited data

Results flagged for a closer look

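Single mice were compared with the others of their group and time point for the 23 members named, in 276 groups of 4 to 7 mice, and 23 values stood apart from the rest by Dixon's gap test at the 95% level, which chance alone gives in about 1 of 20 groups. No explanation was tested for any of them.

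Young mice gave 11 of these values. In ZT16RU, 1 of the libraries with liver RNA, Slc25a13 was low at 135.2 CPM (next 163.8), Slc25a25 low at 137.9 CPM (next 317.8) and Slc25a27 high at 7.31 CPM (next 5.484). In ZT00, Slc25a24 was low at 3.935 CPM (next 6.604) and Slc25a25 high at 415.4 CPM (next 198.3). Slc25a47 was high in ZT8LU at 98.37 CPM (next 4.432), the library with the most Apoh, and in ZT40 at 9.093 CPM (next 3.195). Slc25a42 was high in CR3RL at 311.3 CPM (next 211.3), Slc25a12 in ZT8LL at 112.0 CPM (next 100.7) and Slc25a37 in ZT4LU at 37.5 CPM (next 33.75), and Slc25a34 was low in ZT20LU at 35.0 CPM (next 43.43).

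Nephritic mice gave 7. Mouse RX10RU at ZT8, which had more Arntl than the others of ZT8, was low in Slc25a33 at 11.25 CPM (next 20.8) and in Slc25a48 at 5.896 CPM (next 14.25). Slc25a20 was low in RX12RL at 62.81 CPM (next 74.85), Slc25a34 in RX11LU at 29.43 CPM (next 34.91) and Slc25a43 in RX11RL at 1.361 CPM (next 1.459). Slc25a28 was high in CRS6LL at 79.68 CPM (next 69.98) and Slc25a37 in RX11LL at 46.67 CPM (next 38.77).

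Remission mice gave 5. Mouse s9, which had the Arntl level of ZT0, was high among the mice of ZT12 in Slc25a29 at 26.36 CPM (next 20.8) and in Slc25a37 at 31.2 CPM (next 25.09). Slc25a53 was high in s12 at 2.08 CPM (next 1.278) and Slc25a33 in s3 at 14.18 CPM (next 13.07), and Slc25a24 was low in s1 at 7.138 CPM (next 8.46).

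The rhythm differed between young and nephritic mice, by the group by time term, for Slc25a20 (adjusted p = 0.0253), Slc25a22 (0.0324), Slc25a47 (0.0333) and Slc25a33 (0.0478). Without the 3 libraries with liver RNA the adjusted p values were 0.0499, 0.0839, 0.165 and 0.0648 in that order.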

How the results depend on the processing

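The 32 members lower in nephritic mice ran from 31 to 33 with each mouse left out, were 21 in the first set alone and 9 with the proximal tubule covariate; the 3 higher ran from 2 (several mice) to 6 (without CRS6LU) and were 5 and 0 in those fits. Among all genes, 33.9% were lower in the main fit, 28% in the first set alone and 11.6% with the proximal tubule covariate. The shares higher were 28.1%, 31.1% and 11.4% in that order. The first set alone turned Slc25a47 to 0.71, and the proximal tubule covariate turned Slc25a42 to 0.22 and Slc25a25 to 0.059. Members rhythmic in young mice, 23, ran from 20 to 29 with a mouse left out and were 11 in the joint fit. Of all genes 39.8% were rhythmic in the main fit and 21.2% in the joint fit. Those rhythmic in nephritic mice, 5, ran from 3 (without RX7LU, RX100, RX12RL or RX9RL) to 6 and were 8 with DESeq2, 0 with the cosine test and 9 in the joint fit. The shares of all genes were 21.6% in the main fit, 33.5% with DESeq2, 2.15% with the cosine test and 27.7% in the joint fit. Differing rhythms, 4, ran from 1 (without RX9RU) to 7 (without RX10RL or RX11RU), with 2 without ZT4RL, ZT16RU, ZT16LL, HIL5RU, RX11LU or RX90. They were 9 with DESeq2, 2 with limma and 2 without the set covariate. Of alternatives chosen after seeing the data, they were 7 without mouse RX11RU and 1 without the libraries with liver RNA. Of all genes 6.27% differed in the main fit, 12.5% with DESeq2, 4.6% with limma and 5.52% without the set covariate. The share was 7.67% without RX11RU and 2.51% without the libraries with liver RNA. Slc25a33 lost that call in 23 of 57 fits that left out a mouse, Slc25a22 in 22 and Slc25a20 in 0.

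Members higher in remission than nephritic mice, 5, ran from 5 to 11 (11 without RX12LL, 10 without RX10RL, 9 without CRS6LL, 8 without RX11LL). They were 8 with limma, 12 in the remission run alone, 2 with the set covariate and, added after seeing the data, 10 with an adipocyte covariate. The shares of all genes were 16.8% in the main fit, then 18.5%, 10.6%, 14.6% and 18.3% in that order. Those lower, 7, ran from 6 to 8 and were 3 in the remission run alone, beside 12.8% of all genes there and 19% in the main fit. Against young mice the 2 higher ran from 1 (without s12, s14, s3 or s8) to 2 and were 0 with the run term, 0 in the run alone, 1 with the set covariate and 1 with the added proximal tubule covariate. The shares of all genes were 26.2% in the main fit, then 6.61%, 1.22%, 26% and 5.86%. The 22 lower ran from 19 to 23 and were 4, 2 and 2 with the run term, in the run alone and with the tubule covariate. Here the shares were 26.8% in the main fit, then 6.53%, 2.82% and 7.63%. With the run term but without the repeat of RX11RU, added after seeing the data, 0 were higher and 3 lower, beside 4.4% and 4.99% of all genes. Members differing between ZT0 and ZT12 ran from 9 to 12 in young mice (14 with the added adipocyte covariate), 0 to 0 in nephritic mice, 0 to 3 in remission mice (3 without s9) and 0 to 0 for the difference in ratio. Of all genes 9.41% differed in young mice in the main fit and 13.5% with the adipocyte covariate. In remission mice without s9 the share was 1.41%. The cause of these moves was not tested. No paired analysis was possible because the labels give the mice no shared replicate numbers. Remission libraries were the shallowest, and members such as Slc25a31 and Slc25a2, under 1 CPM, had too few counts for small differences to be detected.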
